A study of Mus musculus with 2 samples.

Results

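The PDZ-LIM proteins are actin-bound scaffolds, several of them of the Z-disc, the structure that anchors the thin filaments of neighbouring sarcomeres to each other. The 7 genes of the family, Ldb3 (ZASP or Cypher), Pdlim1 (CLP36), Pdlim2 (Mystique), Pdlim3 (ALP), Pdlim4 (RIL), Pdlim5 (ENH) and Pdlim7 (Enigma), were taken from long-read RNA-seq of mouse gastrocnemius, a calf muscle. The members were chosen by gene symbol among the annotated genes, with every class of transcript model kept, and all 7 of 7 had reads in both libraries, out of 14704 annotated genes with a read. They held 115 transcript models and 1537 reads in replicate 1, and 79 models and 773 reads in replicate 2.

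The series held 1 group and no contrast: gastrocnemius total RNA of male B6CASTF1/J mice, an F1 hybrid of the laboratory strain B6 and the wild-derived strain CAST, at 14 days of age, in 2 libraries of 2 µg RNA each, labelled biological replicates 1 and 2. Both libraries carried the same donor identifier and the biosample names speak of several males, so RNA of several animals may have been pooled and the labels do not say that the replicates came from separate animals. The spread between the libraries may therefore be partly technical, and every comparison below sets replicate 1 against replicate 2 and not one condition against another.

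After spike-in RNAs were set aside, replicate 1 held 1094607 reads and replicate 2 held 626289. A count of 0 allows up to 3 reads, which is 2.74 CPM (reads per 1000000) in replicate 1 and 4.79 CPM in replicate 2. Complete models averaged 2260.5 bases in replicate 1 and 1919.7 bases in replicate 2. Markers of skeletal muscle fibres summed to 215270 and 231091 CPM. Of these 7 markers, 3 were called higher in replicate 1 and 4 higher in replicate 2, against 6.89% and 6.56% of all tested genes. By comparison, 3 of 6 cardiac markers were detected, with sums of 5.48 and 9.58 CPM. Tnnt2 had 3 reads in replicate 1 and 4 in replicate 2, and the defining cardiac gene Myh6 had 3 and 1. Tnni3 had 0 reads in replicate 1 and 1 in replicate 2, and Myl7, Nppa and Mybpc3 had 0 reads. The sum of 6 fibroblast and tendon markers was 7178 CPM in replicate 1 and 2817 CPM in replicate 2, and 5 of the 6 were called higher in replicate 1, where 6.89% of all tested genes were. Schwann cell markers (299 and 532 CPM, 3 of 3 called) and erythroid markers (621 and 1138 CPM, 2 of 3 called) had larger sums in replicate 2, where 6.56% of all tested genes were called higher. The erythroid marker Alas2 went the other way, with 17.4 and 4.79 CPM, and was not called. With complete models alone, 1 Schwann marker was called higher in replicate 1 and 0 in replicate 2, against 524 and 354 of 6941 genes. Relative to genes of like transcript length, 0 erythroid markers were called, against 582 of 7955 genes.

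Every member carries a PDZ domain at its start, a module that in this family binds alpha-actinin, the cross-linker of the Z-disc, and the full-length proteins end in LIM domains, zinc-binding modules that bind kinases and other partners. Pdlim1, Pdlim2, Pdlim3 and Pdlim4 form the ALP group with a single LIM domain, and Ldb3, Pdlim5 and Pdlim7 form the Enigma group with 3 LIM domains. In the Enigma group an alternative last exon gives short forms that keep the PDZ domain and lack every LIM domain, and in muscle these forms are made beside the long ones. A search of the annotated coding sequences for the LIM spacing of cysteines and histidines found 3 LIM signatures in the longest annotated forms of Ldb3, Pdlim5 and Pdlim7 and 0 in their short forms, against 1 in the longest forms of the ALP group.

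The PDZ part is shown first because it is what the members share in sequence. In all 7 genes the exon after that of the start codon was 152 bases long, and 36 of the 152 positions held the same letter in all 7. Over the 21 pairs of members the exons were 49.3% to 61.2% identical position by position. The exons of the most read members follow, 5′ to 3′ from the GENCODE M21 transcripts on mm10, with the letters shared by all 7 genes in capitals, from chr13:55508892-55509043 (minus strand), chr8:45896748-45896899 (plus strand), chr3:142352734-142352885 (minus strand) and chr14:34579176-34579327 (minus strand).
Pdlim7 152-base exon: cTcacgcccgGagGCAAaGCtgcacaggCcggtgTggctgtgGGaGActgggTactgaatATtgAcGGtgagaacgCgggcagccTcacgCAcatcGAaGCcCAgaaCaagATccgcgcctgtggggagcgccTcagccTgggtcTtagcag
Pdlim3 152-base exon: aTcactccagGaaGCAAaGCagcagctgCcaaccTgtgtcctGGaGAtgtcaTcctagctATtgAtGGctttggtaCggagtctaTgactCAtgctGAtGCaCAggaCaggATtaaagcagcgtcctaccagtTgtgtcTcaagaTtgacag
Pdlim5 152-base exon: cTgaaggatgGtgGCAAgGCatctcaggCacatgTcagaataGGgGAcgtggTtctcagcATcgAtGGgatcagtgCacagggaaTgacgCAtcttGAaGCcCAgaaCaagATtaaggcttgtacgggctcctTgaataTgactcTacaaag
Ldb3 152-base exon: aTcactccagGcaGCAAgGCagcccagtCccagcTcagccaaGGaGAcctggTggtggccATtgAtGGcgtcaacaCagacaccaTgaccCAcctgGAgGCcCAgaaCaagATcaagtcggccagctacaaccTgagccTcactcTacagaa

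The other shared pieces mark where the Enigma group chooses between its forms. Ldb3, Pdlim5 and Pdlim7 each hold a 37-base exon just before the choice, in which 17 positions are the same in all 3 genes, written in capitals, at chr14:34566857-34566893, chr3:142303943-142303979 and chr13:55507330-55507366, all on the minus strand.
Ldb3 37-base exon: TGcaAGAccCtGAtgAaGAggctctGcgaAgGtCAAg
Pdlim5 37-base exon: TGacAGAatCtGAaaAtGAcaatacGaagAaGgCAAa
Pdlim7 37-base exon: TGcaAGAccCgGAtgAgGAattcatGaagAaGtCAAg

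The coding part of the last exon of the short forms is alike in the 3 genes as well. It was 94 bases long in Ldb3, 91 in Pdlim5 and 94 in Pdlim7, between 57.3% and 58.5% identical in pairs when aligned, and its longest run of letters shared by all 3 was 10 bases, in capitals below. The pieces lie at chr14:34561788-34561881, chr3:142303331-142303421 and chr13:55507030-55507123, on the minus strand.
Ldb3 coding part of the short-form last exon: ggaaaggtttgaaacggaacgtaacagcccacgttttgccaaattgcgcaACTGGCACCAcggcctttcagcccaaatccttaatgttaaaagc
Pdlim5 coding part of the short-form last exon: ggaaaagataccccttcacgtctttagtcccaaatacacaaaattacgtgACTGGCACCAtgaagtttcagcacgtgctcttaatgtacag
Pdlim7 coding part of the short-form last exon: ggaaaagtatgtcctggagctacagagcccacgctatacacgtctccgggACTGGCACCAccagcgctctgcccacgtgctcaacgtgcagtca

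On the LIM side, all 3 genes held exons of 181, 121 and 116 bases in a row, and these were 56.9% to 72.4% identical position by position over the pairs.

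The level of a member was its CPM, summed over all its models; in long-read data each read is counted as 1 molecule, so the CPM is not divided by length. The 7 members together took 1404 CPM in replicate 1 and 1234 CPM in replicate 2 (mean 1319 ± 120, SD, n = 2). Since these were bulk libraries, fewer cells of a type and less RNA per cell cannot be told apart in any level.

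Pdlim7, which was first described as a partner of receptor kinases and carries 3 LIM domains in its long form, was the most abundant member. It had 544 CPM in replicate 1 (596 reads, 95% Poisson interval 502 to 590.0) and 565 CPM in replicate 2 (354 reads, 508 to 627), a mean of 555 ± 14.7 (SD, n = 2), and took 38.8% and 45.8% of the members' reads. The libraries lay within each other's counting intervals.

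Pdlim3, the alpha-actinin-associated LIM protein of the Z-disc, came second with 363 CPM in replicate 1 (397 reads, interval 328 to 400.2) and 229.9 CPM in replicate 2 (144 reads, 194 to 271), a mean of 296 ± 93.9 (SD, n = 2). Pdlim5, a scaffold that ties protein kinases to the Z-disc, had 252 CPM in replicate 1 (276 reads, 223 to 284) and 192 CPM in replicate 2 (120 reads, 159 to 229), a mean of 222 ± 42.8. Replicate 1 was the higher library for both genes, and the ranges of Pdlim3 and Pdlim5 over the 2 libraries overlapped. Within each library Pdlim3 was the higher of the 2. Their counting intervals lay apart in replicate 1 and overlapped in replicate 2.

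Ldb3, whose loss disrupts the Z-disc of mice, had 172 CPM in replicate 1 (188 reads, 148 to 198) and 168 CPM in replicate 2 (105 reads, 137 to 203), a mean of 169.7 ± 2.90 (SD, n = 2). It lay below both values of Pdlim5 and 3.00 times above Pdlim1.

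The other ALP-group genes were low. Pdlim1, an actin stress-fibre protein of many tissues, had 55.7 and 57.5 CPM (61 and 36 reads), a mean of 56.6 ± 1.24 (SD, n = 2). Pdlim4, an actin-binding scaffold, had 14.6 and 14.4 CPM (16 and 9 reads), and Pdlim2, known from immune cells for its part in breaking down transcription factors, had 2.74 and 7.98 CPM (3 and 5 reads), at the limit that a count of 0 allows in replicate 1. For comparison, the median of the 14704 genes with a read was 6.73 CPM, where Pdlim7 had rank 169 and Ldb3 rank 605. No other neighbours in the order Pdlim7, Pdlim3, Pdlim5, Ldb3, Pdlim1, Pdlim4, Pdlim2 overlapped in their values. The only annotated gene that overlaps a member is Mir6945, inside Pdlim7, with 0 reads.

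**Figure D1:**
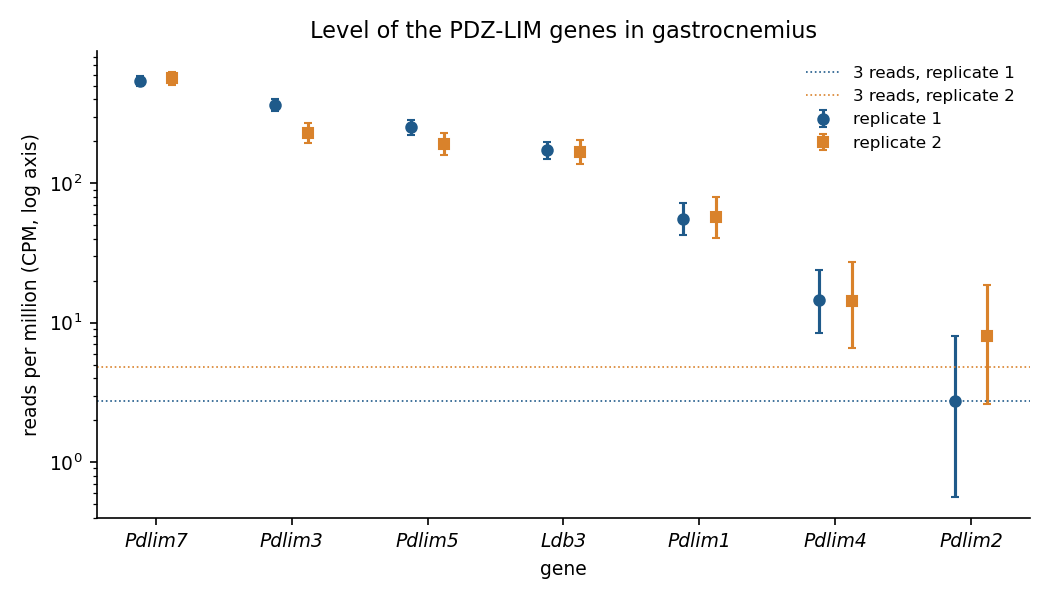
Level of each member in CPM on a log axis, replicate 1 (circles) left of replicate 2 (squares), with 95% Poisson intervals that cover counting error only; dotted lines mark 3 reads in each library. Pdlim7 lies highest at 544 and 565 CPM, and Pdlim2 lies near the dotted lines at 2.74 and 7.98 CPM.

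Between the libraries, 1 of the 6 members tested, Pdlim3, was called different. It was 1.58-fold higher in replicate 1 than in replicate 2 (log2 0.66; adjusted p = 3.58e-05, two-sided Fisher's exact test, adjusted after Benjamini and Hochberg over the 7955 genes of at least 10 reads). Of all tested genes 13.5% were called, 6.89% higher in replicate 1 and 6.56% higher in replicate 2, and the median log2 ratio over them was 0.26, compared with 0.66 for Pdlim3. Pdlim5 was 1.32-fold higher in replicate 1, which did not pass (log2 0.40; adjusted p = 0.0775, same exact test). Pdlim7, Ldb3, Pdlim1 and Pdlim4 had ratios between 0.963 and 1.02, and Pdlim2, with 8 reads in all, was not tested. The models of replicate 1 were longer, and set against genes of like transcript length Pdlim7 turned from a log2 ratio of -0.05 to 0.62 and was called higher in replicate 1 (adjusted p = 4.77e-09, exact binomial test). Pdlim3 stayed called there (log2 0.50; adjusted p = 0.00612, exact). Pdlim5 was called with a minimum of 50 reads (adjusted p = 0.0388) and with complete models alone (log2 0.60; adjusted p = 0.00969, Fisher's exact test). Replicate 1, the higher library for Pdlim3, also had the larger sum of fibroblast and tendon markers, and their part in the ratio was not tested.

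The Z-disc partners of the family gave the setting for these levels. Of 24 listed partners 23 were detected, and of 19 tested 9 were higher in replicate 1 and 3 higher in replicate 2, by Fisher's exact test. Of all tested genes 6.89% were higher in replicate 1 and 6.56% higher in replicate 2. With a minimum of 50 reads, 9 of 16 partners were higher in replicate 1 and 3 higher in replicate 2. At that minimum 33.2% of all tested genes were called in either direction. The 4 most abundant were Actn3, alpha-actinin of fast fibres, with 6240 ± 907 CPM, Myoz1 (calsarcin-2) with 2583 ± 286 CPM, Actn2, the other sarcomeric alpha-actinin, with 2273 ± 501 CPM, and Tcap (telethonin) with 1777 ± 451 CPM (SD, n = 2 each). All 4 were called higher in replicate 1, where Pdlim3 was called higher as well. TMM scaling of the library sizes moved the median log2 ratio of all tested genes to 0.08. With it, 5 partners were higher in replicate 1 and 3 higher in replicate 2, against 266 and 663 of all 7955 tested genes. Of the 4 partners named above, Myoz1 was no longer called there (adjusted p = 0.712, exact binomial test). Relative to genes of like transcript length, 3 partners were higher in replicate 1 and 4 higher in replicate 2, against 179 and 403 of all tested genes. The balance between the libraries thus turned with that choice. Both alpha-actinins lay above every PDZ-LIM member in both libraries.

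Some of these partners carry PDZ or LIM modules themselves. Fhl1, a protein made of LIM domains, had 559 ± 87.8 CPM, about the level of Pdlim7, Synpo2 and Synpo2l, with a PDZ domain, had 221 ± 54.8 and 165 ± 34.4 CPM, and the LIM protein Csrp3 had 152 ± 155 CPM (SD, n = 2 each); these 4 were named after their values were seen. A separate list held 13 further genes with PDZ or LIM modules or LIM-binding products. All 13 were detected, and 1 of the 11 tested was higher in replicate 1 (0 with TMM scaling) and 0 higher in replicate 2. Of all tested genes 6.89% were higher in replicate 1 and 6.56% higher in replicate 2. The most abundant of the list, Lims2, Zyx, Lims1 and Lasp1, had 52.3 ± 15.2, 37.3 ± 5.36, 26.5 ± 1.32 and 22.0 ± 15.4 CPM. Of 11 splicing regulators known to act on exons of such genes, 10 were detected, and 3 of the 10 were higher in replicate 1. With TMM scaling 1 was, and relative to genes of like transcript length 0 were. Of all 7955 tested genes, 548, 266 and 179 were higher in replicate 1 in the same settings. The most abundant of these regulators were Rbm24 with 181 ± 47.9 CPM, Mbnl2 with 118 ± 47.4 CPM, Mbnl1 with 51.3 ± 20.5 CPM and Srsf5 with 45.9 ± 24.3 CPM (SD, n = 2 each).

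The models of the members fell into very different classes. A model was called annotated, unannotated but complete, partial or genomic. In unannotated complete models the introns combine annotated splice sites in another way, or use a splice site that the annotation lacks. Partial models hold a run of an annotated model's introns, and some have a single exon and no intron. Genomic models overlap the gene without matching its introns. Unannotated complete models held 51.3% of the members' reads in replicate 1 and 54.5% in replicate 2, against 15.6% and 12.0% over all annotated genes. This was carried by 2 genes: in Pdlim7 86.7% and 91.5% of the reads, and in Pdlim5 82.2% and 71.7%, were in such models, while Pdlim3 had 10.6% and 6.25% there.

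Pdlim3 and Pdlim1 were mostly read as the annotation has them. Annotated models held 84.4% and 88.2% of the reads of Pdlim3 and 98.4% and 77.8% of those of Pdlim1. Of Pdlim7 they held 6.21% and 1.41%, and of Pdlim5 a single read in replicate 1 and none in replicate 2. A genomic model of 6 bases held 23 Pdlim5 reads in each library, which was 8.33% and 19.2% of the reads counted in the level of Pdlim5.

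Ldb3 was read mostly in parts. Its complete models held 2.13% of its reads in replicate 1 (4 of 188, 95% Clopper-Pearson interval 0.583% to 5.36%) and 1.90% in replicate 2 (2 of 105, 0.232% to 6.71%), and partial models held 70.7% and 76.2%. Reads whose model reached the annotated start codon were 1.60% and 1.90% of the Ldb3 reads, against 95.5% and 94.1% in Pdlim7, 93.2% and 92.4% in Pdlim3, 89.1% and 76.7% in Pdlim5 and 93.4% and 77.8% in Pdlim1. Single-exon models took 60.6% and 68.6% of the Ldb3 reads. A single-exon model of 621 bases, counted among the partial models, held 33.5% and 46.7% of the Ldb3 reads. The 152-base PDZ exon printed above was in 3 Ldb3 reads in replicate 1 and 2 in replicate 2, out of 188 and 105. Pdlim2, with 3 and 5 reads, had 0 complete reads and 0 with the start codon. The cause of the missing 5′ part of Ldb3 was not tested.

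**Figure D2:**
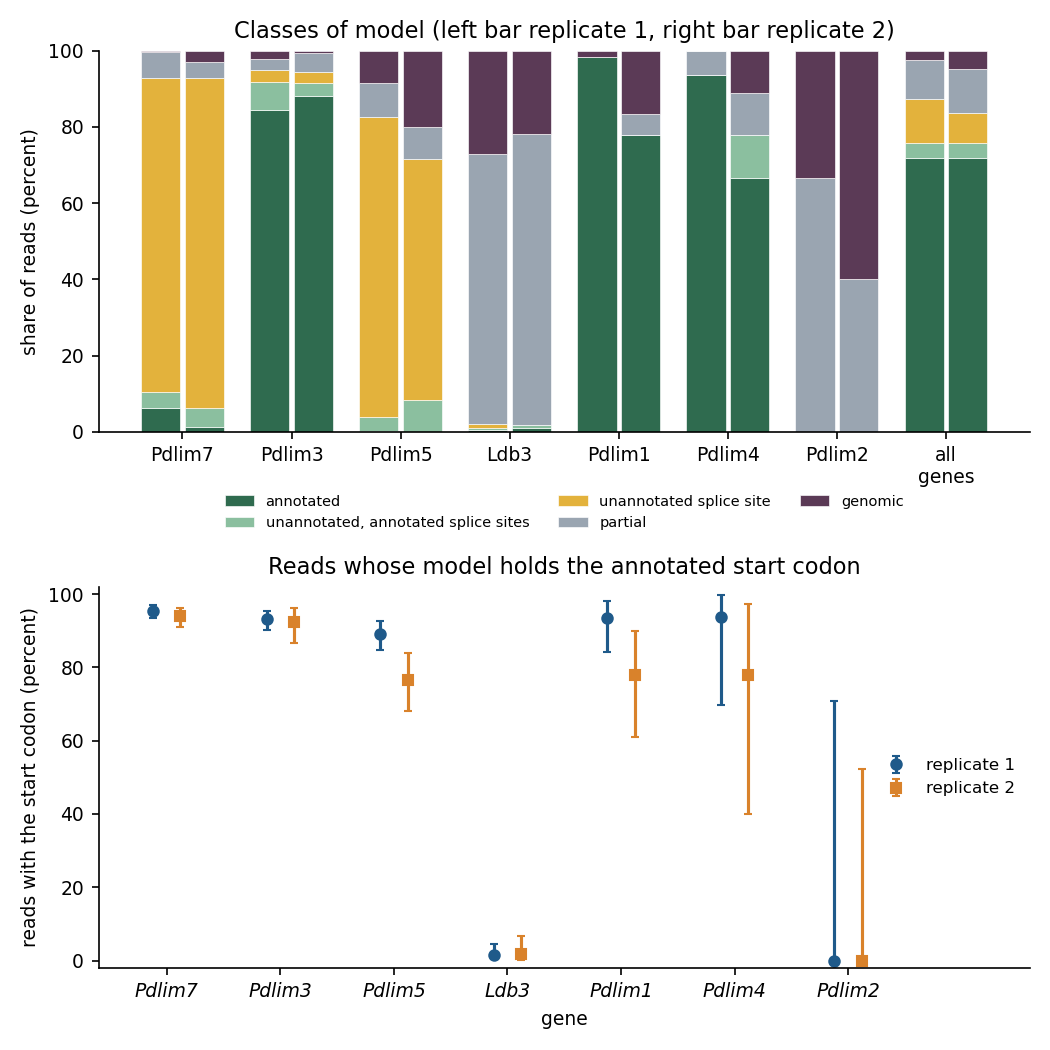
Upper panel, share of each gene's reads in the 5 classes of model, left bar replicate 1 and right bar replicate 2, with all annotated genes at the right; lower panel, share of reads whose model holds the annotated start codon, with 95% Clopper-Pearson intervals. Unannotated models fill most of the Pdlim7 and Pdlim5 bars, partial and genomic models fill the Ldb3 bars, and Ldb3 lies at 1.60% and 1.90% in the lower panel.

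In each of the well-covered members 1 model held most of the complete reads. In Pdlim7 this was an unannotated model of 7 exons with 469 of 554 complete reads in replicate 1 and 293 of 329 in replicate 2 (86.9% ± 3.11, SD, n = 2). In Pdlim5 it was an unannotated model of 8 exons with 208 of 228 and 70 of 86 (86.3% ± 6.95). In Pdlim3 it was the annotated 8-exon Pdlim3-203 with 323 of 377 and 123 of 136 (88.1% ± 3.37). Pdlim1-201 had 57 of 60 and 28 of 28 complete reads of its gene, and Pdlim4-201 had 15 of 15 and 6 of 7. Ldb3-203, a short form, had 1 of 4 and 1 of 2, and Pdlim2 had no complete read.

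Between the libraries, the share of the leading model was not called different in any of the 3 members with at least 50 complete reads in each (adjusted p = 0.717 for Pdlim7, 0.481 for Pdlim5 and 0.848 for Pdlim3, Fisher's exact test, two-sided, adjusted over 961 genes), and 1 of the 3, Pdlim5, was under 0.05 before adjustment (p = 0.0271, exact). Of all 961 genes 1.87% were called. The median leading share of the 1044 genes with that many complete reads was 95.5%, above the shares of these 3 members.

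The leading Pdlim7 model differed from the annotation in 1 exon. Annotated short forms join a 31-base exon to a 137-base exon through an exon of 119 bases (Pdlim7-203) or of 17 bases (Pdlim7-202), whereas the leading model went straight to an exon of 162 bases that began 25 bases upstream of the annotated start of the 137-base exon. The 162-base exon was in 503 of 571 spanning reads in replicate 1 (88.1%, interval 85.1% to 90.6%) and 315 of 337 in replicate 2 (93.5%, 90.3% to 95.9%). The 137-base exon was in 50 of 571 (8.76%, 6.57% to 11.4%) and 11 of 337 (3.26%, 1.64% to 5.77%). The 119-base exon was in 34 of 578 (5.88%, 4.11% to 8.12%) and 5 of 338 (1.48%, 0.482% to 3.42%). For both of these exons the intervals of the libraries did not overlap. Of the unannotated complete reads of Pdlim7, 93.8% and 94.8% held the 162-base exon. The 17-base exon was found in 7 reads in replicate 1 and 1 read in replicate 2.

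The 25 bases are shown with 20 bases on each side, in capitals, and below them the annotated 17-base exon with the same flanks, because most reads held the first and few the second. They lie at chr13:55507605-55507669 and chr13:55507844-55507900 on the minus strand of mm10.
Pdlim7 25-base stretch: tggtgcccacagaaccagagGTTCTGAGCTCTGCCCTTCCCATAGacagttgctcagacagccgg
Pdlim7 17-base exon: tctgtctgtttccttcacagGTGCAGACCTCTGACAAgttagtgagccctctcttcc

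Read position by position, 11 of the 17 letters of the short exon equalled the first letters of the 25-base stretch. The 2 bases before the unannotated start, before the annotated start and before the 17-base exon were AG in each case. The 25 bases left a remainder of 1 after division into codons, while the 119-base and 17-base exons each left 2. Read from the annotated start codon, the leading model came to a stop after 116 codons and not at an annotated stop, against 222 codons for Pdlim7-203, 188 for Pdlim7-202 and 457 for the long form Pdlim7-201. A further unannotated model, with an exon of 154 bases in that place, 17 bases more than the annotated one, had 3 reads in replicate 1 and 1 read in replicate 2 and kept the annotated stop at 188 codons. The codon counts of these unannotated models rest on reference letters within the exon boundaries given for the models. Whether the 162-base exon was placed rightly, next to the annotated 17-base exon, was not tested, and neither was its source. The stop after 116 codons holds only for the boundaries as given.

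The leading Pdlim5 model also differed in 1 internal exon, likewise between the PDZ part and the choice. Its exon 4 was 71 bases long, 28 bases longer at its 3′ end than the annotated 43-base exon, and it went on to an annotated 18-base exon. The 71-base exon was in 235 of 251 spanning reads in replicate 1 (93.6%, 89.9% to 96.3%) and 85 of 95 in replicate 2 (89.5%, 81.5% to 94.8%), and the 43-base exon in 15 of 251 (5.98%) and 10 of 95 (10.5%). The 18-base exon was in 236 of 251 (94.0%) and 86 of 95 (90.5%). The annotated short form Pdlim5-203 places exons of 17, 15 and 18 bases in a row here, and the first 2 of these were in 0 of 251 and 0 of 95 spanning reads, which allows a share of up to 1.20% and 3.16%. These 3 small exons, at chr3:142309528-142309544, chr3:142306284-142306298 and chr3:142304705-142304722 on the minus strand, are written in capitals throughout.
Pdlim5 17-base exon: AAAACACACGTGACAAA
Pdlim5 15-base exon: TAACCCTGGCACTGT
Pdlim5 18-base exon: GAAAATTCCACCTAAACG

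The 28 added bases and the 18-base exon made 46 bases, with a remainder of 1 in codons, whereas the annotated inserts of Pdlim5 at this place (92, 419, 110, 125 or 50 bases) each left 2. The 28 bases lie outside the annotated transcripts and their letters were not analysed here, so the reading frame of the leading model was not read. A second unannotated model, with an exon of 49 bases that starts at the first base of the 17-base exon and runs 32 bases past its end, had 5 reads in replicate 1 and 4 in replicate 2. In both Pdlim5 and Pdlim7 the unannotated sequence stood next to annotated exons of 15 to 18 bases, and neither its placement nor its source was tested.

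**Figure D3:**
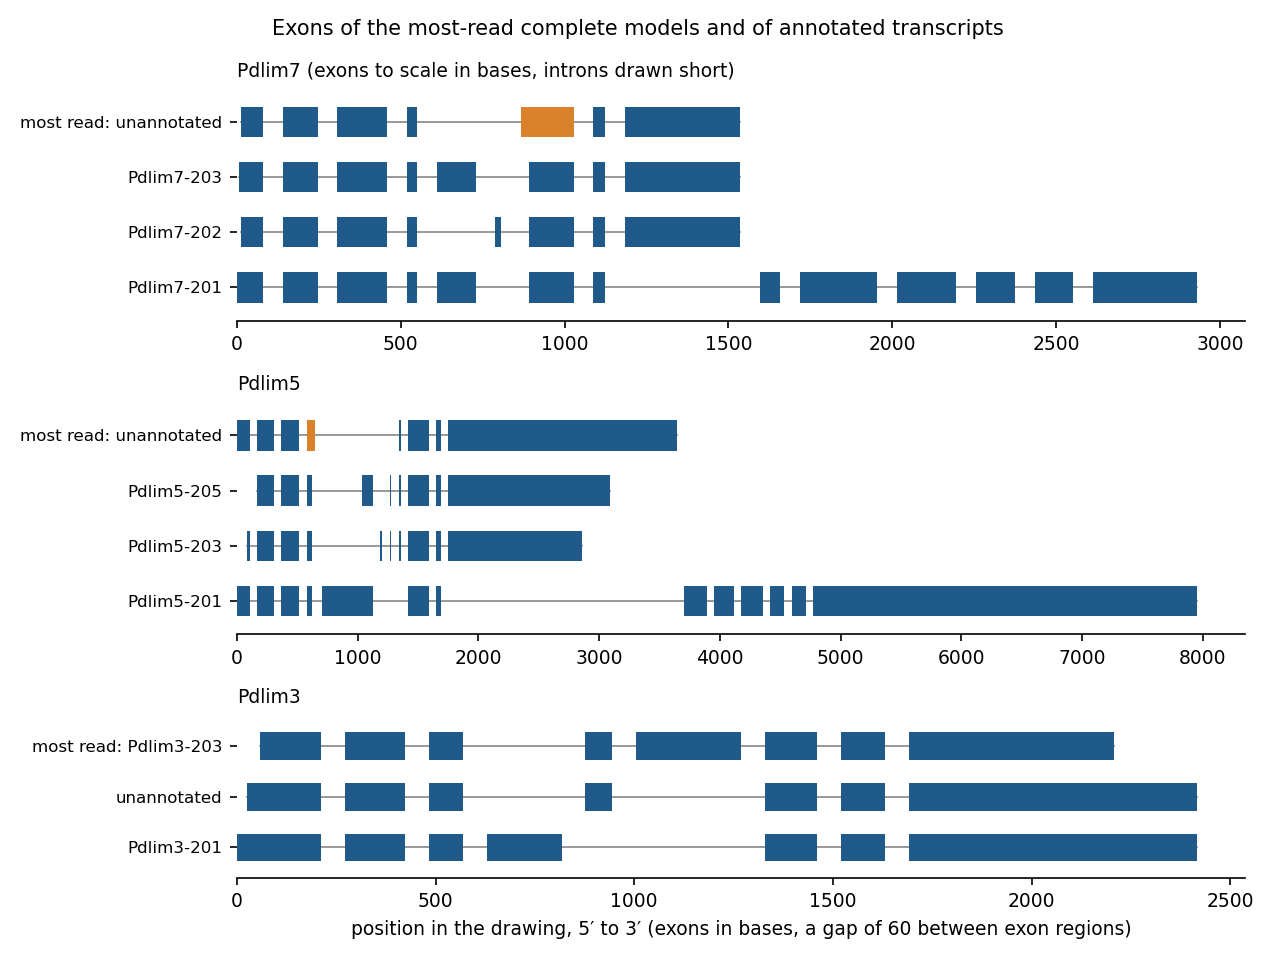
Exons (boxes, to scale in bases) of the most read complete model of Pdlim7, Pdlim5 and Pdlim3 above annotated transcripts of the same gene, 5′ to 3′, with introns drawn short; orange marks internal exons absent from the annotation. The orange exon is 162 bases in Pdlim7 and 71 bases in Pdlim5, and both leading models end in the last exon of the short forms.

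The short forms without LIM exons made up nearly all Pdlim5 and Pdlim7 reads. Among spliced models that reach across the choice, the short form had 567 of 589 Pdlim7 reads in replicate 1 (96.3%, interval 94.4% to 97.6%) and 341 of 343 in replicate 2 (99.4%, 97.9% to 99.9%), a mean of 97.8% ± 2.23 (SD, n = 2). These 2 intervals did not overlap, and the tests between libraries did not cover this share. In Pdlim5 it had 246 of 252 (97.6%, 94.9% to 99.1%) and 95 of 96 (99.0%, 94.3% to 99.97%), a mean of 98.3% ± 0.947. The long Pdlim7-201, with its 3 LIM signatures, had 17 reads in replicate 1 and 1 in replicate 2, and Pdlim5-201 had 1 and 0. Pdlim7-201 has 1697 bases, where the leading short model had 908. Pdlim5-201 has 5016 bases, where the leading short model had at most 2594 in replicate 1 and 2039 in replicate 2. In both genes the short share was higher in replicate 2, the library with the shorter complete models. The part of transcript length in these shares of reads was not tested.

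Ldb3 was mixed, and its 2 libraries gave different values. The short form had 8 of 25 reads that reach across in replicate 1 (32.0%, 14.9% to 53.5%) and 14 of 19 in replicate 2 (73.7%, 48.8% to 90.9%). The counts were small and the value moved with the models counted: the short form took 10.96% (4.85% to 20.5%) and 43.8% (26.4% to 62.3%) of all spliced reads at the choice, 52.2% (43.5% to 60.8%) and 77.8% (67.2% to 86.3%) once single-exon models were added, and 41.2% (34.0% to 48.7%) and 64.9% (54.6% to 74.4%) over every class. The intervals of the libraries overlapped among models that reach across and not under the other 3 countings. A single-exon model of 621 bases in the short last exon alone had 63 and 49 reads, and a genomic model of 2314 bases in the long last exon had 41 and 16. Replicate 2, with the shorter models, had the higher short share under each of the 4 countings, which the tests between libraries did not cover.

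**Figure D4:**
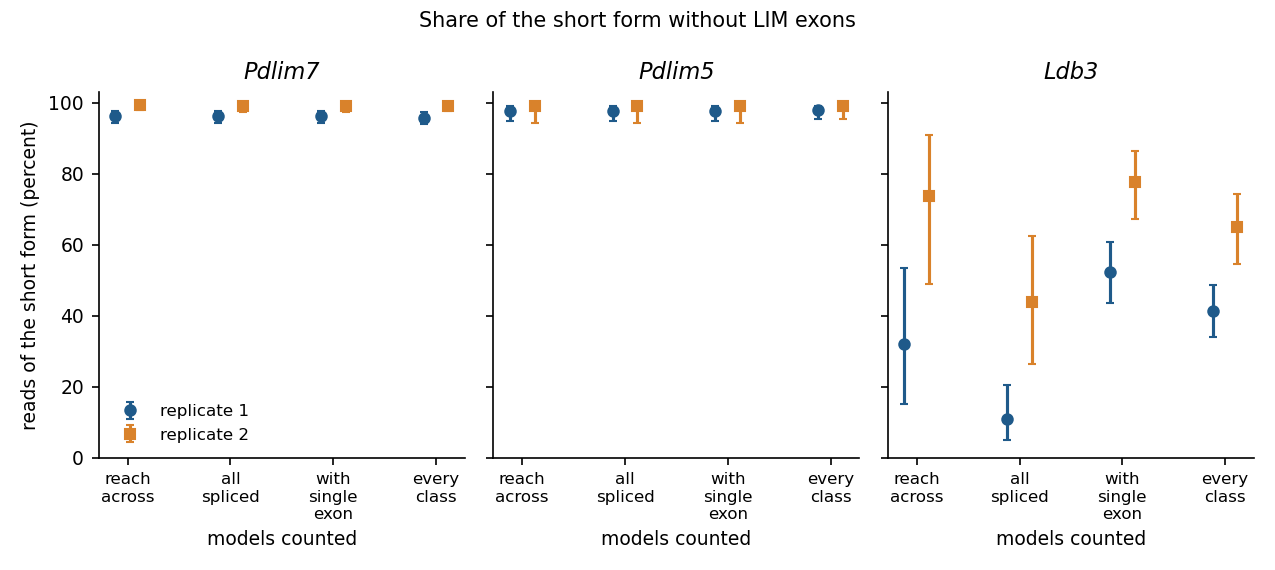
Share of reads of the short form without LIM exons in Pdlim7, Pdlim5 and Ldb3, replicate 1 (circles) left of replicate 2 (squares), under 4 ways of choosing the models, with 95% Clopper-Pearson intervals. Pdlim7 and Pdlim5 stay above 95% in both libraries, and Ldb3 lies between 10.96% and 77.8%.

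The exons that tell the muscle forms of Ldb3 apart were nearly unread. In mice and humans a heart form and a skeletal muscle form differ in the part between the PDZ domain and the choice, which holds the ZM motif of ZASP. The 359-base exon known from the heart form was in 1 read in each library. The 204-base exon of the skeletal form was held whole in 0 reads in replicate 1 and 1 read in replicate 2. These counts leave out 1 further read in each library whose model began inside the 204-base exon. In both of these models the exon ended at its annotated 3′ end and was joined to the 170-base exon. Between 2 and 3 reads in a library spanned either exon, too few for a share.

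Most Pdlim3 reads held the exons of the form known from skeletal muscle. That form holds exons of 68 and 264 bases where the smooth muscle form holds a single exon of 188 bases. The 68-base exon was in 359 of 373 spanning reads in replicate 1 and 129 of 133 in replicate 2, the 264-base exon in 333 of 373 (89.3%, 85.7% to 92.2%) and 124 of 133 (93.2%, 87.5% to 96.9%), and the 188-base exon in 12 of 373 and 4 of 133. Pdlim3-203, with both skeletal exons, has 364 codons, and Pdlim3-201, with the 188-base exon, has 316 and had 10 and 4 reads. Smooth muscle and pericyte markers summed to 451 CPM in replicate 1 and 350 CPM in replicate 2, and their part in the Pdlim3-201 reads was not tested.

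The 3 exons that set these forms apart lie on the plus strand of mm10 at chr8:45908469-45908656, chr8:45909019-45909086 and chr8:45913697-45913960, and nothing is in capitals.
Pdlim3 188-base exon: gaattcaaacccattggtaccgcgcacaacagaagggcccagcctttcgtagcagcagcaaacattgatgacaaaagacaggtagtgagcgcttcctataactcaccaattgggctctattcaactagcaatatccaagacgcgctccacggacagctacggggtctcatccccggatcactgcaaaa
Pdlim3 68-base exon: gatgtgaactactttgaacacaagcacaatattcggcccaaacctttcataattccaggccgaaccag
Pdlim3 264-base exon: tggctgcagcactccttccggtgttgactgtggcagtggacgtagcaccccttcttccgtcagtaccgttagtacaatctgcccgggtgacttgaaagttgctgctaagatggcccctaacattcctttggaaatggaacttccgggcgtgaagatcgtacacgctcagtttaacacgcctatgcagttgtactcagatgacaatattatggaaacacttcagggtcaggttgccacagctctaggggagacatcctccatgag

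A further form of Pdlim3 had the 68-base exon without the 264-base exon. This unannotated model of 7 exons had 26 of 377 complete reads in replicate 1 (6.90%) and 5 of 136 in replicate 2 (3.68%). The 264 bases are a whole number of codons, and the model read through to the annotated stop at 276 codons with its single LIM signature. An unannotated 3-exon model that starts inside the gene had 6 and 4 reads and no start codon.

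**Figure D5:**
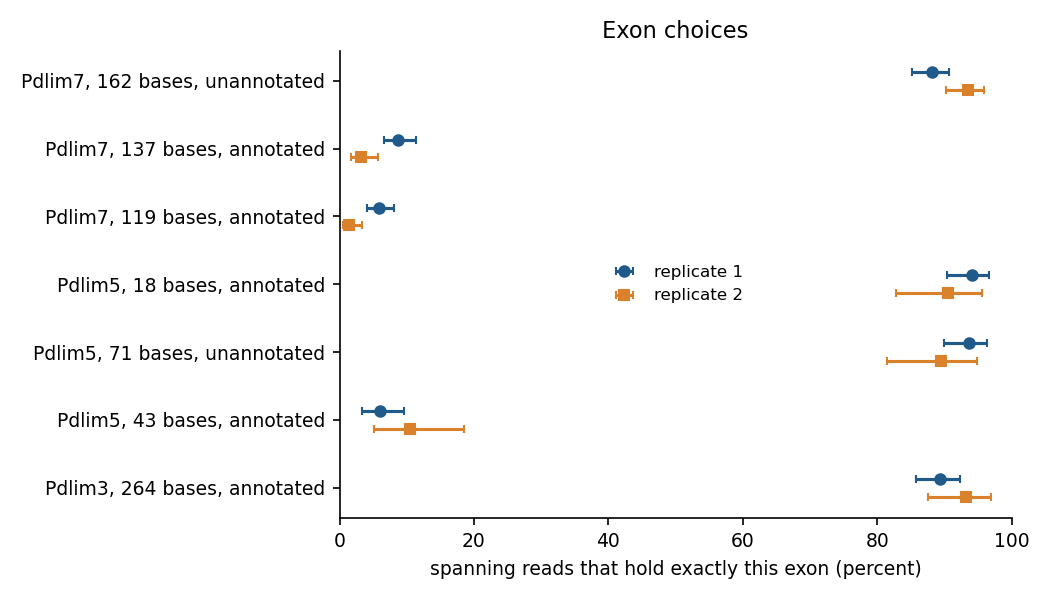
Share of spanning reads that hold exactly the named exon, for the 7 exons held by 5% to 95% of spanning reads in at least 1 library, replicate 1 (circles) above replicate 2 (squares), with 95% Clopper-Pearson intervals. The unannotated 162-base exon of Pdlim7 and 71-base exon of Pdlim5 lie near 90%, and the annotated 137-base and 43-base exons at the same places lie between 3.26% and 10.5%.

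The low members were read simply. Pdlim1-201 ran through 7 exons with the 152-base PDZ exon in 57 of 61 and 29 of 36 reads, and the rest were short annotated, partial or genomic models of at most 6 reads in a library. Pdlim4 had, beside Pdlim4-201, 1 complete read of an unannotated 6-exon model in replicate 2, and Pdlim2 had partial and genomic models alone, with 3 reads in replicate 1 and 5 in replicate 2.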

How the data were processed

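Each of the 2 libraries came with a table of read counts per transcript model and a matching annotation of the models. The authors deposited whole read counts, not normalized, with the exon number, length and class of each model, per the file headers. Per the labels' file descriptions, the build was mm10 and the gene annotation GENCODE M21. For the aligner, the caller of models and their versions, nothing is stated in the sources used here, and the ends of models tend to sit on annotated ends, so the length of single reads cannot be seen.

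From these, reads were summed per gene after ERCC spike-in RNAs were set aside (47054 reads in replicate 1 and 16073 in replicate 2) and divided by the rest of the library to give CPM. Means and SD are over 2 libraries. Intervals are exact Poisson intervals for levels and exact Clopper-Pearson intervals for shares, at 95%, and cover counting error only. Between the libraries, levels were compared by Fisher's exact test over genes of at least 10 reads, and leading model shares over genes of at least 50 complete reads in each library, with Benjamini-Hochberg adjustment and a threshold of 0.05; log2 ratios used a pseudocount of 0.5 CPM. Both tests were tested on simulated data. They measure counting error between 2 libraries of 1 group. An exon choice was named where at least 10 reads in each library spanned the exon and 5% to 95% of them held it in at least 1 library. All members were named, with complete models of at least 5% of the complete reads, apart from Ldb3 models with 1 read in all. The 4 most abundant genes were named of the lists of partners, of further PDZ and LIM genes and of splicing regulators. Members and lists were chosen with earlier results of these data known. Sequences were rebuilt from the GENCODE M21 transcripts. Alternatives covered the models counted, single-read models, TMM scaling (edgeR 4.0.16 in R 4.3.3), spike-in totals, minimum counts, transcript length and each library alone. Python 3.11.15 with pandas 2.3.3, SciPy 1.17.1, Biopython 1.88 and matplotlib 3.10.9 were used.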

Additional observations from a re-analysis of the deposited data

Results flagged for a closer look

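Reads on the strand opposite to Ldb3 and Pdlim5, at loci that the annotation does not hold, lay wholly within the spans of both genes in both libraries, above the 3 reads that a count of 0 allows, and outside the measurements reported above. Within Ldb3 there were 33 such reads in replicate 1 and 14 in replicate 2, equal to 17.6% and 13.3% of the gene's own reads, and 30 and 11 of them were in single-exon models. The most read model reached from chr14:34580164 to 34583565 in replicate 1 (21 reads) and from chr14:34581699 to 34583565 in replicate 2 (5 reads), on the plus strand of mm10. Within Pdlim5 there were 18 and 12 such reads, equal to 6.52% and 10% of the gene's own reads, and 18 and 11 of them were single-exon. The most read model reached from chr3:142345924 to 142352734 in replicate 1 (12 reads) and from chr3:142351546 to 142352734 in replicate 2 (6 reads). Both end at the last base of the 152-base exon of Pdlim5. Models that overlap an exon of the gene's own models held 14 and 10 of the Pdlim5 reads, and 12 and 6 of those within Ldb3. The source of these reads was not tested.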

How the results depend on the processing

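No paired analysis was possible because the series holds 1 group, so no 2 groups share replicate numbers. Levels depended on the models counted. With models of the annotation alone, Pdlim7 had 20.9 CPM, Pdlim5 0.457, Ldb3 1.26, Pdlim1 49.8, Pdlim4 11.6 and Pdlim2 0 CPM, and Pdlim3 took the first place in the order. With complete models alone the values were 516, 173, 3.42, 49.8, 12.4 and 0 CPM in the same order of genes. With single-read models left out Pdlim7 had 531, Ldb3 160.1, Pdlim1 54.1 and Pdlim4 11.6 CPM, and with spike-in RNAs kept in the total these 4 had 537, 164, 54.7 and 14.0 CPM. Per kilobase of complete models, the order of the 6 members with such a model was the same. Leading shares over all model classes were 80.7% for Pdlim7, 83.4% for Pdlim3, 66.8% for Pdlim5, 85.6% for Pdlim1 and 80.2% for Pdlim4; without single-read models, Pdlim5 had a leading share of 93.6% and a short-form share of 99.6%. Each library alone moved no level or share beyond the SD, which 2 libraries cannot do by construction. The 4 countings of the short form, of which 3 were chosen after seeing the data, left Ldb3 between 27.4% and 65.0% on average and the other 2 genes within their spread.

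The call for Pdlim3 held under every alternative run, with adjusted p between 1.50e-05 and 0.00758 by the exact tests. A second member was called in 3 of them: Pdlim5 at a minimum of 50 reads (2 members; adjusted p = 0.0388) and with complete models alone (2 members; adjusted p = 0.00969), and Pdlim7 relative to genes of like transcript length (2 members, 582 genes called; log2 0.62 in place of -0.05, adjusted p = 4.77e-09, all Fisher's exact or exact binomial tests). With TMM scaling the median log2 ratio of the tested genes was 0.08 in place of 0.26, and 266 genes were higher in replicate 1 and 663 higher in replicate 2, against 548 and 522. No member's leading share was called with a minimum of 20 complete reads or with models joined by their introns. Ratios near 0 changed sign without a call: Pdlim1 with complete models alone (0.29), Ldb3 and Pdlim4 with TMM scaling (-0.15 each) and Ldb3 relative to genes of like transcript length (-0.29). Ldb3 and Pdlim2 had too few complete reads for leading shares, that of Pdlim4 rests on 15 and 7 reads, and depth limits every exon choice in Ldb3.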
